A study of Mus musculus with 4 samples.

Results

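The heat shock and chaperone genes *Hspa1a*, *Hspa1b*, *Hspa8*, *Hsp90aa1*, *Hsph1*, *Dnajb1*, *Hspe1*, *Hspd1*, *Hspb1* and *Bag3* were followed in immune cells isolated from mouse melanomas. They are 10 of the 32285 genes in one deposited count matrix and of the 31053 in the other, and all 10 were found by symbol in both. They were chosen by measured values of these libraries: their level and their share of positive cells across cell classes, their level along a sum of hypoxia genes in *Lyz2*-rich cells, and their ratio between tumor-marked and unmarked cells. Those values are therefore given below as a description, and nothing is supported with them.

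Wild-type C57BL/6 mice carried subcutaneous tumors grown from 1 single-cell clone of B16-F10, a melanoma line, that makes the cytoplasmic fluorescent protein ZsGreen (ZsG) under doxycycline control. The mice drank doxycycline, and tumors were taken on day 8, minced and digested with collagenase D and DNase for 30 min at 37 °C. Immune cells were sorted by ZsG taken up from the tumor into a positive (ZsG+) and a negative (ZsG-) gate. This was done once from all CD45+ cells (the CD45 sort) and once from CD45+ TCRβ+ cells (the T cell sort). The paper states that the ZsG+ gate of the CD45 sort took bright cells. Most lymphocytes that carried ZsG therefore fell on its ZsG- side. All 4 libraries came from tumors of this clone and were made by 3′ droplet sequencing. There was 1 library per condition, so no value carries a spread between mice, no test was possible, and the intervals given are 95% intervals for counting error only. A difference between conditions therefore cannot be told apart from a difference between their libraries.

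Every cell makes some heat shock proteins. Hsp70 proteins (*Hspa8*, which is always on, and the stress-inducible copies *Hspa1a* and *Hspa1b*) bind exposed stretches of unfolded protein, J-domain proteins such as the *Dnajb1* product drive their cycle, and the *Hsph1* product (Hsp110) and the *Bag3* product exchange their nucleotide. The *Hsp90aa1* product matures kinases and receptors, the *Hspd1* and *Hspe1* products form the Hsp60 and Hsp10 folding chamber of mitochondria, and the *Hspb1* product (Hsp27) is a small heat shock protein that holds unfolded proteins. Heat shock factor 1 switches the inducible members on by binding inverted nGAAn units, after heat, low oxygen, unfolded protein or the handling of tissue.

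Promoter windows of *Hspa1a*, *Hspa1b*, *Hspe1*, *Hspb1* and *Hsph1* are printed as sequence. RefSeq windows of 300 bases on GRCm38.p6 (250 before to 50 after a transcript start) were searched for a pair of inverted units, GAANNTTC or TTCNNGAA. Each of these letter strings is its own reverse complement, so both strands were covered. Capitals mark every such pair, and pairs that overlap run together. An entry was found for 8 of the 10 members (11 windows), not for *Hspa8* or *Hsp90aa1*. Every window printed holds a pair, so the printed windows do not stand for all members. Those of *Dnajb1*, which hold none, those of *Hspd1* and *Bag3* and a second of *Hsph1* are not printed.
Hspa1a, chr17:34972107-34972406, minus strand: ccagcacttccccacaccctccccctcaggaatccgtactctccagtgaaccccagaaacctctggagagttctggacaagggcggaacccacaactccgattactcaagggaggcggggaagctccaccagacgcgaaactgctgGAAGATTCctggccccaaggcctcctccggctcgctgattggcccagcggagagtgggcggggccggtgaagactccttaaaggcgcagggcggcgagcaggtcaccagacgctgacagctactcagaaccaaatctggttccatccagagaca
Hspa1b, chr17:34959189-34959488, minus strand: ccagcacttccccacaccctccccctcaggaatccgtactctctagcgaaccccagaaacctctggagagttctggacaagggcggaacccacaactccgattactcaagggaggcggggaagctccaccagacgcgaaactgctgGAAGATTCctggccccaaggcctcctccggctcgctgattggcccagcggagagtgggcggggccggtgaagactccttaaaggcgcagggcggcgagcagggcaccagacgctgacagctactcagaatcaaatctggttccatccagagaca
Hspe1, chr1:55087898-55088197, plus strand: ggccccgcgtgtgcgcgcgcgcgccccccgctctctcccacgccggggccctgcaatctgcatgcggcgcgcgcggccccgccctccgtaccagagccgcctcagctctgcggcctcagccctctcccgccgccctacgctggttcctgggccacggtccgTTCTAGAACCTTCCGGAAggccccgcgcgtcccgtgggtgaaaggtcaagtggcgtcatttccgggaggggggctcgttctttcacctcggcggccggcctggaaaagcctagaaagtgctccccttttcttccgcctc
Hspb1, chr5:135887669-135887968, plus strand: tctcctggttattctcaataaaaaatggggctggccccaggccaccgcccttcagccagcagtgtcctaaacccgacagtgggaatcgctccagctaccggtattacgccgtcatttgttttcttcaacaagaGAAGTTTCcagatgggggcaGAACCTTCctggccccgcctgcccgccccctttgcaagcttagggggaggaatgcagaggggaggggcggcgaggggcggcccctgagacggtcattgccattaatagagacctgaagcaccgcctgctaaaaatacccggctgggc
Hsph1, chr5:149636266-149636565, minus strand: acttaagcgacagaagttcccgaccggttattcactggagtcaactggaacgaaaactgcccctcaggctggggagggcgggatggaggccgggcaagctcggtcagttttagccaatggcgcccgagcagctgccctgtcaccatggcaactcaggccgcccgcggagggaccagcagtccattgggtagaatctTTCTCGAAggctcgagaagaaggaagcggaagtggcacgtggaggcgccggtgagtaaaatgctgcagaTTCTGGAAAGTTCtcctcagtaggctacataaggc

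A pair was present in 8 of the 11 member windows (72.7%) and in 4946 of 32851 windows over all genes (15.1%). Runs of 3 alternating units (GAANNTTCNNGAA or TTCNNGAANNTTC) were present in 4 member windows and in 198 of all windows (0.603%). The member windows are not separate sequences. The 2 *Hsph1* windows overlap and hold the same run, and *Hspe1* and 1 *Hspd1* window hold the same bases on opposite strands. The member counts therefore include the same sequence more than once, and nothing is read from them beside the shares over all windows. The *Hspa1a* and *Hspa1b* windows differed at 4 of 300 bases, and each held 1 pair at bases 147 to 154. The *Hspe1* site, at bases 162 to 179 of its window, is shared with 1 of 2 windows of *Hspd1*, a gene that runs the other way from the same region; the other *Hspd1* window held none. The window of *Bag3* held 1 pair, at bases 293 to 300, and both windows of *Dnajb1* held none. A match describes letters in a window and shows no binding.

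On GRCm38, *Hspa1a* (ENSMUSG00000091971) lies at chr17:34969190-34972156 and *Hspa1b* (ENSMUSG00000090877) 9951 bases away at chr17:34956436-34959238, both on the minus strand. Of the stretches of 50 bases in the *Hspa1a* transcript, 58.8% also occur in the *Hspa1b* transcript, and in the last 500 bases of either transcript none do. Reads from the 3′ end can therefore be told apart, while reads from further up can be split or lost between the copies, so the sum of both genes, called the Hspa1 pair below, is given beside each. *Hspd1* (chr1:55077835-55088243, minus) and *Hspe1* (chr1:55088132-55091307, plus) overlap head to head by 112 bases. The others are *Hspa8* (chr9:40800984-40810087, plus), *Hsp90aa1* (chr12:110690605-110702728, minus), *Hsph1* (chr5:149614287-149636376, minus), *Dnajb1* (chr8:83608193-83612653, plus), *Hspb1* (chr5:135887919-135889563, plus) and *Bag3* (chr7:128523616-128546981, plus).

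After the study's filters on genes and mitochondrial share, 4699 ZsG- and 4123 ZsG+ cells of the CD45 sort were kept, with a median of 5769 and 9928 UMIs (counted molecules), and 948 ZsG- and 1879 ZsG+ cells of the T cell sort, with 6634 and 8180. Cells were put into classes by at least 3 UMIs over at least 2 markers: T cell-like (*Cd3d*, *Cd3e*, *Cd3g*, *Trac*), NK cell/ILC-like (*Ncr1*, *Klrb1c*, *Klre1*, *Klra8*), plasmacytoid dendritic cell-like (pDC), conventional dendritic cell-like (cDC) and B cell-like. Cells with at least 5 *Lyz2* UMIs and no lymphoid or pDC gate are called Lyz2-high, whether or not they met the cDC gate. This class holds monocytes and macrophages and can hold cDC. The class called cDC has only cells under the *Lyz2* limit. Between 2 and 4 markers of its own and none of another class stood among the 10 leading genes of each class. Most of these markers set the gates, and cells meeting 2 gates were set apart, so this is no independent check. For Lyz2-high cells the leading genes also held *C1qa* and *C1qb*, which set no gate. The T cell sort also held pDC, cDC and Lyz2-high cells. In the labels of the T cell sort, one order of the 2 libraries contradicts another. The order in the file and table names was used. Under it, Foxp3-positive cells were a larger share of the T cells in the ZsG+ than in the ZsG- library. The paper reports regulatory T cells enriched in its ZsG-positive T cell sample. By flow cytometry it found ZsG more often in them than in conventional CD4 T cells. The order used is therefore the one that goes with the paper. Under the other order every ZsG+ over ZsG- log2 ratio of that sort changes sign. Pairs of libraries in a sort shared 6 barcodes (CD45) and 1 (T cell).

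*Hspa8* was the member with the highest count in every class and library, apart from *Hsp90aa1* in the 34 B cell-like cells. Levels below are UMIs per 1000000 UMIs (CPM) summed over the cells of a class. They are 3′ molecule counts, so the order of genes also depends on how well each 3′ end was caught.

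*Hspa8*, the constitutive Hsp70, was at 1987 CPM in T cells, 1453 in NK cells, 1127 in pDC, 2531 in cDC and 2269 in Lyz2-high cells of the ZsG- CD45 library. In the ZsG+ CD45 library the same classes gave 2264, 1846, 1579, 2876 and 2962 CPM. Lyz2-high cells and cDC stood above T cells, and T cells above NK cells, in both. The 2 highest classes were close, 2962 (2945 to 2979) in Lyz2-high cells against 2876 (2790 to 2965) in cDC of the ZsG+ library, and their intervals overlap. T cell sort values of *Hspa8* were 1592 and 1933 CPM in ZsG- and ZsG+ T cells, 1138 and 1108 in pDC, and 2181 and 2221 in Lyz2-high cells, again lowest in pDC.

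*Hsp90aa1*, the inducible Hsp90, was highest in T cells of the CD45 sort, at 1097 CPM (ZsG-) and 1427 (ZsG+), against 673 and 756 in NK cells and 571 and 809 in Lyz2-high cells. These sums weight deep cells, among them cycling T cells (at least 3 UMIs over *Mki67*, *Top2a* and *Pclaf*). Without cycling cells, T cells of the CD45 sort were at 567 (ZsG-) and 779 (ZsG+) CPM. NK cells were then at 616 and 697, and Lyz2-high cells at 562 and 809, so T cells did not stand highest. In the T cell sort, T cells were at 717 and 970 CPM, Lyz2-high cells at 675 and 705, and pDC at 842 and 634, so there the ZsG- T cells were not above the ZsG- pDC. The genes of the mitochondrial chamber were higher in T cells than in Lyz2-high cells. *Hspd1* was at 538 and 646 CPM in CD45-sort T cells, 226 and 184 in NK cells, and 115 and 197 in Lyz2-high cells. Without cycling cells it was at 208 and 260 in these T cells and at 107 and 188 in Lyz2-high cells. In the T cell sort, *Hspd1* was at 267 and 404 CPM in T cells, 169 and 176.95 in Lyz2-high cells, and 176 and 98.4 in pDC. *Hspe1*, its partner, was at 561, 623, 562 and 787 CPM in T cells of the 4 libraries and at 214, 336, 399.6 and 420.3 in Lyz2-high cells. This held for both genes in each library, while *Hspd1* in ZsG+ NK cells of the CD45 sort was below the Lyz2-high cells. Within T cells of the ZsG- CD45 library, *Hspd1* was at 612.5 CPM in CD8, 504.7 in Foxp3-positive and 232.1 in Foxp3-negative CD4 T cells. Their median depths were 11129.5, 12571 and 5358.5 UMIs.

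*Hsph1* followed the same order at a lower level, with 89.1, 124, 70.01 and 89.8 CPM in T cells and 35.8, 48.0, 30.5 and 31.1 in Lyz2-high cells of the 4 libraries (CD45 ZsG-, CD45 ZsG+, T cell sort ZsG- and ZsG+). *Dnajb1* showed no such order: 58.9, 53.1, 69.8 and 58.3 CPM in T cells against 64.6, 71.1, 50.3 and 44.99 in Lyz2-high cells, and 114 and 109 in the pDC of the T cell sort. *Bag3* was a low-count gene that was higher in Lyz2-high cells (20.8, 22.4, 24.7 and 12.4 CPM) than in T cells (5.3, 7.5, 6.2 and 6.1).

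The Hspa1 pair was uneven between classes and libraries. It was at 66.4 CPM (62.6 to 70.4) in ZsG- and 88.7 (76.1 to 102.8) in ZsG+ T cells of the CD45 sort, and at 81.0 (73.0 to 89.7) and 56.3 (50.5 to 62.5) in T cells of the T cell sort. Lyz2-high cells were at 56.3 (47.2 to 66.6) in the ZsG- CD45 library and at 292.1 (286.8 to 297.5) in the ZsG+ one. Those of the T cell sort were at 346.0 (313.7 to 380.7) and 263.6 (246.4 to 281.7). So 3 of 4 libraries had Lyz2-high cells above T cells, and the ZsG- CD45 library, whose intervals overlap, did not. The pDC gave 13.1, 11.04, 63.6 and 170.1 CPM and the cDC 35.4, 37.3 and 70.7 CPM (no cDC value for the T cell sort ZsG- library, with 10 cells). The largest class value, 553.8 CPM in NK cells of the ZsG+ T cell sort library, came from 32 cells, of which 1 held 96.8% of the UMIs.

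*Hspb1* was near 0 in most classes. It was at 0 UMIs in the 275 Lyz2-high cells of the ZsG- CD45 library and at 14.5 CPM in the 3160 of the ZsG+ library, at 0.8 and 27.5 CPM in Lyz2-high cells of the T cell sort, and between 0 and 2.1 CPM in T cells. Its highest class values rested on single cells: 182 CPM in 26 ZsG+ pDC came from 33 UMIs in 1 cell, 169 CPM in 32 ZsG+ NK cells of the T cell sort from 29 UMIs in 1 cell, and 33.6 CPM in 94 ZsG- pDC of the T cell sort from 28 UMIs in 1 cell.

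**Figure D1:**
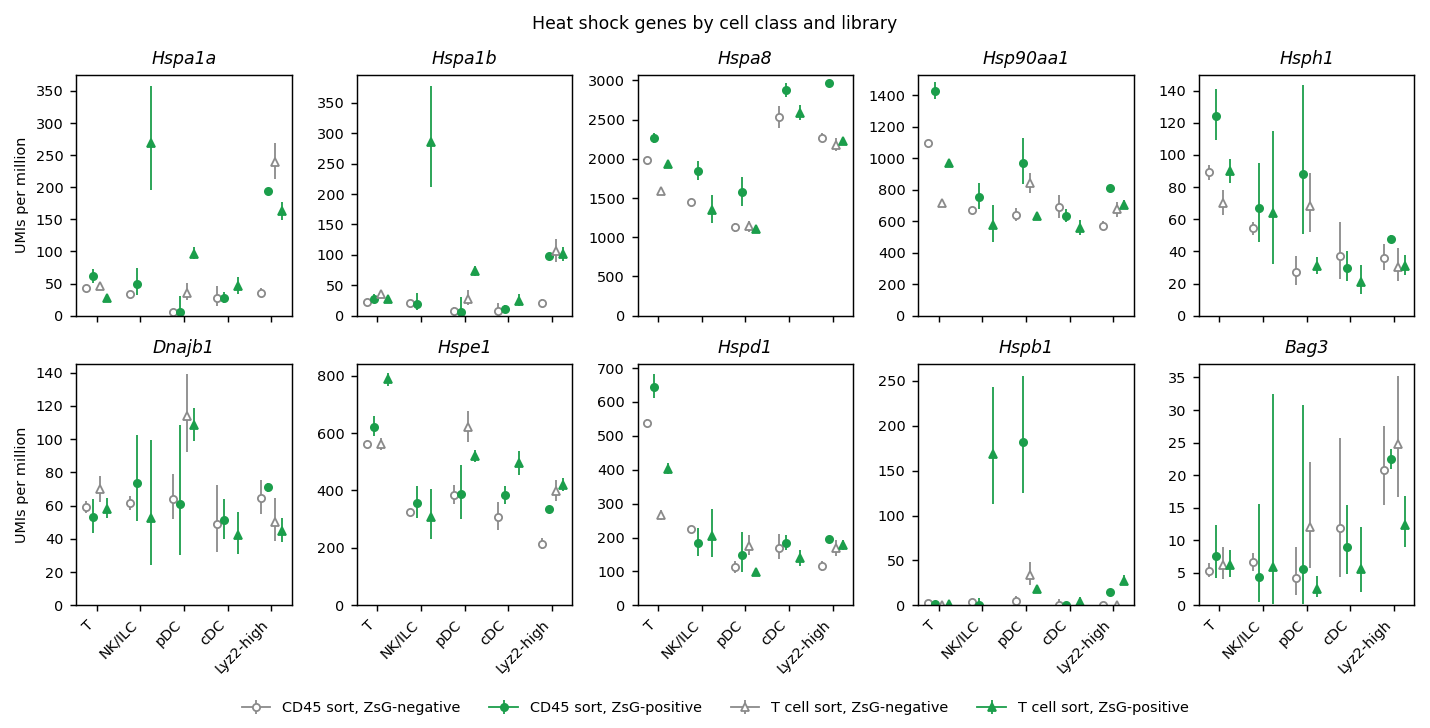
Level of each member (y axis, CPM, from 0) by cell class (x axis) in the 4 libraries. Points are sums over the cells of a class with 95% Poisson intervals, circles the CD45 sort, triangles the T cell sort, open ZsG-negative, filled ZsG-positive. *Hspd1* and *Hspe1* sit higher in T cells than in Lyz2-high cells, the 4 pDC values of *Hspa8* lie between 1108 and 1579 CPM, and the Hspa1 genes and *Hspb1* have single high points that come from few cells.

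Shares of cells with a UMI depend on depth, so each cell was also thinned to 2000 UMIs. No class is known to lack these genes, so the lowest class is the nearest to a background. For the Hspa1 pair, 25.8% of ZsG- and 52.2% of ZsG+ Lyz2-high cells of the CD45 sort had a UMI before thinning (median depth 8408 and 10207) and 7.27% and 22.3% after. In T cells the shares were 5.23% and 11.8% before (6925.5 and 6866.5) and 2.39% and 5.29% after, and in ZsG- NK cells 2.70% (4595) and 1.75%. After thinning the lowest were the CD45-sort pDC, with 0.588% of ZsG- cells (2.35% before, median depth 8308) and 0 of 26 ZsG+ cells (7.69% before, 6940). The exact interval for 0 of 26 cells reaches 13.2%. In Lyz2-high cells of the T cell sort the thinned shares were 15.1% (ZsG-) and 13.7% (ZsG+). *Hspa8* had a UMI in 77.4% to 98.6% of thinned cells of every class. Just outside and just inside the *Lyz2* limit of 5 in the ZsG+ CD45 library, cells with 3 to 4 *Lyz2* UMIs (143 cells) had *Hspa1a* at 307 CPM and *Hspa8* at 2501, and cells with 5 to 6 (75 cells) had 293 and 2939. *Hsph1* (26.9 and 67.8 CPM), *Dnajb1* (48.0 and 109.7) and *Bag3* (14.7 and 30.3) were more than 2-fold higher inside it, and *Hspb1* went from 9.8 CPM to 0.

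The level of the Hspa1 pair was set by a small number of cells. The rule had used the level and the share of positive cells. The shares without a UMI restate the latter, and the concentration below is linked to both, so these values are a description. Of the 1300 ZsG- T cells in the CD45 sort, 94.8% had no UMI of the pair, and the 13 cells with the highest count (1% of the class) held 87.6% of its UMIs. The same share of cells held 7.28% of the *Hspa8* UMIs. In the ZsG+ Lyz2-high cells of the CD45 sort, 47.8% had none, and the top 32 cells (1%) held 32.6% of the pair's UMIs against 4.28% for *Hspa8*. *Hspb1* was more concentrated still: 98.4% of these cells had none, 32 cells held 97.0% of its UMIs, and 1 cell held 146. For *Hsp90aa1*, *Hspe1*, *Hspd1*, *Dnajb1*, *Hsph1* and *Bag3*, the top 32 cells held 6.56%, 5.19%, 7.06%, 9.44%, 13.4% and 13.6%.

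**Figure D2:**
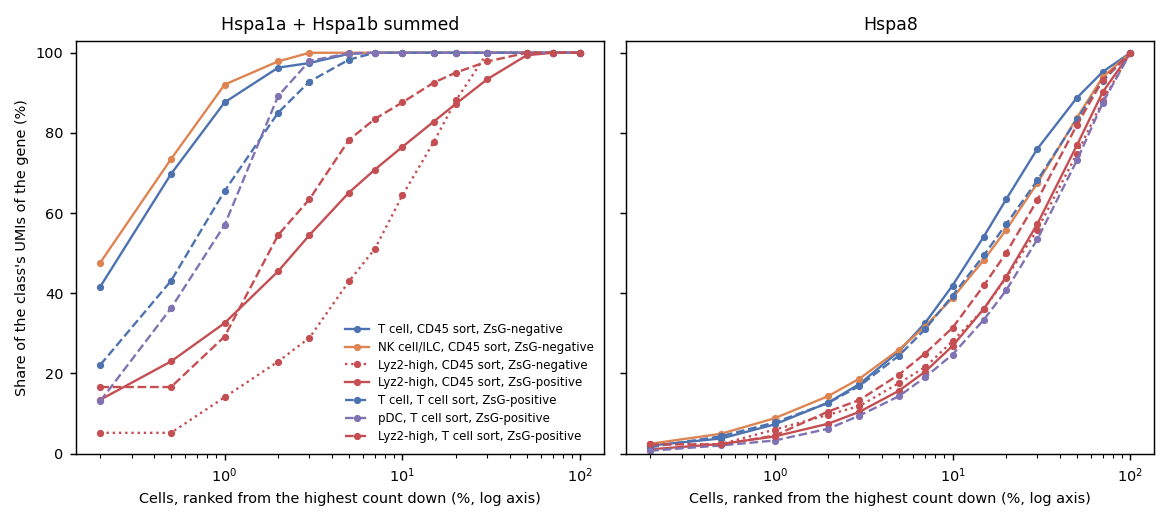
Share of a class's UMIs of the Hspa1 pair (left) and of *Hspa8* (right) held by the cells with the highest counts (y axis, %), against the share of cells counted from the highest down (x axis, %, log scale). In T and NK cells of the ZsG-negative CD45 library, 1% of the cells hold over 80% of the pair's UMIs, while for *Hspa8* they hold under 10% in each of the 7 sets drawn.

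Cells with at least 10 UMIs of the pair, a limit set after the distribution had been seen, are called Hspa1-high. They were 16 of 1300 ZsG- T cells (1.23%, exact binomial interval 0.705 to 1.99%), 19 of 2297 ZsG- NK cells (0.827%) and 200 of 3160 ZsG+ Lyz2-high cells (6.33%, 5.51 to 7.24%) in the CD45 sort. They held 91.3%, 88.4% and 69.2% of the pair's UMIs in these classes. None of the 275 ZsG- Lyz2-high cells of the CD45 sort was Hspa1-high (exact binomial interval 0 to 1.33%), and the highest of them had 7 UMIs. In the T cell sort they were 8 of 628 ZsG- T cells (1.27%), 10 of 695 ZsG+ T cells (1.44%), 13 of 524 ZsG+ pDC (2.48%), 6 of 81 ZsG- Lyz2-high cells (7.41%) and 14 of 244 ZsG+ Lyz2-high cells (5.74%). The share among Lyz2-high cells thus stood apart in 1 of 4 libraries, the ZsG- CD45 one. That library also differed in the make-up of this class. Cells with at least 10 UMIs over *C1qa*, *C1qb* and *C1qc* are called C1q-high macrophages below. They were 5 of its 275 Lyz2-high cells, against 1774 of 3160 in the ZsG+ CD45 library.

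In 5 of the 7 sets with at least 8 Hspa1-high cells, their median depth was below that of the other cells. Median UMIs were 9096 against 10229.5 in the other ZsG+ Lyz2-high cells, 4498 against 4595.5 in NK cells and 4727 against 6149 in ZsG+ T cells of the T cell sort. They were deeper in the ZsG- T cells of the T cell sort, with 7695.5 against 5750.5. They were also deeper in the ZsG- T cells of the CD45 sort, with 26032 against 6869.5, where 11 of the 16 (68.8%) were cycling against 30.4% of the others. Of the 10 classes with 1 to 6 Hspa1-high cells, these were deeper in 7, as in ZsG+ T cells of the CD45 sort (2 cells, 15919 against 6680). The median mitochondrial share was 3.48% against 3.11% in the ZsG+ Lyz2-high cells. Counted instead as cells over 1000 CPM of the pair, they were 12 T cells, 23 NK cells and 178 ZsG+ Lyz2-high cells (5.63%) of the CD45 sort. *Lyz2*, the leading transcript of the neighbouring myeloid cells, was at 13.5 CPM in Hspa1-high and 17.4 in other ZsG- T cells of the CD45 sort. Its ZsG- NK cells gave 15.9 and 27.7. Values went the other way in sets with 1 or 2 Hspa1-high cells. These were cDC (231.7 and 109.1 in CD45 ZsG-, 269.4 and 193.3 in CD45 ZsG+, 158.7 and 31.2 in T cell sort ZsG+) and ZsG+ NK cells of the T cell sort (113.5 and 0). The part of carried-over transcripts was not tested.

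Other members were higher in the same cells as the pair, across lymphoid and myeloid classes. The pair itself is left out of the counts, since it chose the cells. Of the members outside it, 5 of 8 tested were at least 2-fold higher in the Hspa1-high than in the other ZsG+ Lyz2-high cells of the CD45 sort, where 7.18% of all genes tested were at least 2-fold apart either way. The counts were 5 of 8 in ZsG- T cells (14.9% of all genes), 8 of 8 in ZsG- NK cells (19.6%), 6 of 7 in ZsG- T cells of the T cell sort (20.1%), 5 of 7 in its ZsG+ T cells (20.6%), 5 of 8 in its ZsG+ Lyz2-high cells (21.1%) and 7 of 7 in its ZsG+ pDC (18.3%). No member was at least 2-fold lower in any of these 7 sets. Cycling cells (defined above) were more frequent among Hspa1-high than other cells in ZsG- T cells (68.8% and 30.4%) and ZsG- NK cells (15.8% and 5.36%) of the CD45 sort. In T cells of the T cell sort they were 25% and 5.65% (ZsG-) and 20% and 16.1% (ZsG+). In ZsG+ Lyz2-high cells of the CD45 sort they were 10% and 9.12%. The part of cycling in these ratios was not tested.

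*Hsp90aa1*, *Hsph1* and *Dnajb1* were past 2-fold in all 7 sets. *Hsp90aa1* went from 735 to 1866 CPM in ZsG+ Lyz2-high cells (log2 ratio 1.34, 1.298 to 1.388), from 1053 to 3065 in ZsG- T cells (1.54, 1.45 to 1.63) and from 618 to 6653 in ZsG- NK cells (3.43, 3.32 to 3.53) of the CD45 sort. Its log2 ratio in the T cell sort was 1.99 in ZsG- T cells, 2.09 in ZsG+ T cells, 2.14 in ZsG+ Lyz2-high cells and 3.07 in ZsG+ pDC. *Hsph1* had log2 ratios from 1.61 to 3.42 and *Dnajb1* from 1.31 to 3.75. In NK cells *Dnajb1* stood at 55.5 CPM in the other cells and at 731 in the Hspa1-high cells. *Bag3*, the Hsp70 exchange factor, had 1.61 in ZsG+ Lyz2-high cells (19.8 to 60.4 CPM), 1.91 in ZsG- T cells and 3.18 in NK cells.

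*Hspb1* showed the largest ratios of the members outside the pair, from few molecules: 198 UMIs in 2960 other and 367 UMIs in 200 Hspa1-high ZsG+ Lyz2-high cells (5.4 and 145 CPM, log2 ratio 4.74, 4.49 to 5.00), and 3 against 43 UMIs in NK cells (10.60, 8.96 to 12.94). The constitutive *Hspa8* moved least in ZsG+ Lyz2-high cells and ZsG- NK cells of the CD45 sort and in ZsG+ pDC of the T cell sort. Its log2 ratio was -0.03 in ZsG+ Lyz2-high cells (2965 and 2914 CPM), 0.29 in ZsG- T cells and, past 2-fold, 1.38 in NK cells and 1.05 in pDC. The mitochondrial genes were near it in the ZsG+ Lyz2-high cells (*Hspe1* 0.32, *Hspd1* 0.06) and past 2-fold in NK cells (2.13 and 1.89), in pDC (1.80 and 1.61) and in ZsG- T cells of the T cell sort (1.78 and 1.77).

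**Figure D3:**
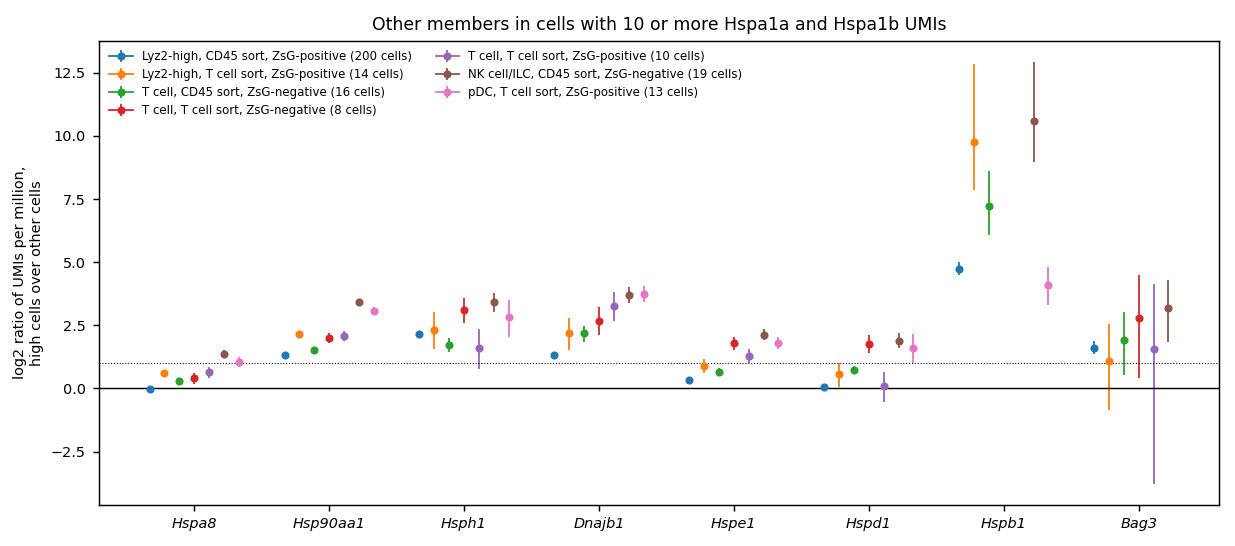
log2 ratio of CPM in Hspa1-high cells over the other cells of the class (y axis) for the members outside the Hspa1 pair (x axis), in 7 sets of cells (colors), with 95% counting intervals. The solid line is no difference, the dotted line 2-fold. *Hsp90aa1*, *Hsph1* and *Dnajb1* lie above the dotted line in every set and *Hspa8* in NK cells and pDC.

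Beyond the members, the partners of Hsp70 and Hsp90 (18 genes, such as the J-domain gene *Dnaja1*) were past 2-fold upwards in 1 of 17 tested in ZsG+ Lyz2-high cells (median log2 ratio -0.10 against -0.06 over all genes) and in 6 of 16 in ZsG- NK cells (0.62 against 0.00). *Dnajb4*, the one in Lyz2-high cells, went from 8.6 to 23.3 CPM (1.44), while *Dnaja1* went from 442 to 841 (0.93). *Dnaja1* was at 581 and 2575 CPM in NK cells (2.15), 629 and 2601 in ZsG- T cells of the T cell sort (2.05), and 335 and 1464 in pDC (2.13). The subunits of TRiC, the cytosolic folding ring for actin and tubulin, did not share this. None of the 8 was past 2-fold or even higher in the Lyz2-high cells (median -0.19), none was past 2-fold in NK cells (-0.15), and in ZsG+ T cells of the T cell sort all 7 tested were past 2-fold lower. In Lyz2-high cells none of 18 ER chaperones was past 2-fold, nor was any of the heat shock factor genes (*Hsf1*, *Hsf2*, *Hsbp1*). Oxidative and metal stress genes had 2 of 8 past 2-fold higher there, *Hmox1* (195 to 566 CPM, 1.54) and *Mt2* (1.42), and the hypoxia genes outside the rule 5 of 9 (1.03).

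Immediate early genes, which are switched on within minutes by many stimuli and also by tissue digestion, moved with the pair in several sets. *Jun* was at 669 and 1262 CPM in other and Hspa1-high ZsG+ Lyz2-high cells (log2 ratio 0.92), 59.2 and 1351 in NK cells (4.51) and 321 and 3631 in pDC (3.498). Over the list, 7 genes of 12 were past 2-fold upwards in NK cells (median 1.55), 3 up and 1 down in ZsG- T cells of the CD45 sort (*Egr1* -3.42, *Ier3* 2.79), and none of 12 in ZsG+ Lyz2-high cells (median 0.00). Summed over the list, Lyz2-high cells had 17391, 12557, 12562 and 11484 CPM in the 4 libraries against 1858 in ZsG- T cells and 2725 in ZsG- NK cells of the CD45 sort, and the highest value belongs to the library with no Hspa1-high Lyz2-high cell. The part of tissue handling in these values was not tested.

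Single cells of a set gave another view of which members go with the pair. Cells were thinned, log-transformed and correlated within 1 class and library, where all share depth and handling, and the values are a description. Pearson r between *Hspa1a* and *Hspa1b* was 0.72 in ZsG+ Lyz2-high cells of the CD45 sort, 0.82 in those of the T cell sort, and 0.86 in ZsG- NK and T cells of the CD45 sort. *Hsp90aa1* with the pair gave 0.32, 0.53, 0.34 and 0.24 in these 4 sets, and *Hspa8* gave 0.04, 0.28, 0.17 and 0.08. *Dnajb1* gave 0.16, 0.20, 0.34 and 0.25, and *Hspb1* 0.24, 0.59, 0.35 and 0.21. The order of the members thus differed between the sets, and *Hspb1* stood above *Hsp90aa1* in the Lyz2-high cells of the T cell sort. *Hspe1* and *Hspd1* gave 0.34 with each other in ZsG- T cells of the CD45 sort and 0.43 in ZsG+ T cells of the T cell sort. *Hsp90aa1* with *Hspd1* gave 0.36 and 0.44 in the same sets. *Hspe1* with *Hspd1* was lower elsewhere. It was 0.14 in ZsG+ Lyz2-high cells and 0.18 in ZsG- NK cells of the CD45 sort. In the T cell sort it was 0.19 in ZsG+ Lyz2-high cells and 0.11 in ZsG+ pDC.

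Over 3135 thinned ZsG+ Lyz2-high cells of the CD45 sort, the genes most like the pair among 5361 were *Hmox1* (r = 0.32), a heme-degrading stress enzyme, then *Jun* (0.24), *Atf3*, *Fth1*, *Dnaja1*, *Polr2l* and *Cxcr4* (each 0.21), *Ero1l* (0.20), *Hilpda* and *Tatdn2* (each 0.19). Beside them stood the members *Hsp90aa1* (0.32) and *Hsph1* (0.31). Over the 19 class-by-library sums, the genes most like it were others: *Dync1i2* (0.77), *2610507B11Rik* (0.71), *Ndufs4* (0.70), *Cmpk1* (0.69), *Rps6ka3* and *Mrpl23* (each 0.67), *Ndufb4* and *2210016F16Rik* (each 0.66), and *Pgap1* and *Mob1b* (each 0.64). There the other members with a value (all but *Bag3*, which stayed under 50 CPM) lay between -0.16 (*Hsph1*) and 0.14 (*Hspb1*), and none of these sums is independent of the few high cells described above.

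Lyz2-high cells were next split by the summed UMIs of *Hilpda*, *Egln3*, *Vegfa*, *Nos2* and *Inhba*, as in the rule that chose the members. *Hilpda*, *Egln3* and *Vegfa* are targets of the hypoxia-inducible factors, and *Nos2* and *Inhba* are genes of activated macrophages. In the ZsG+ CD45 library, 1437 cells had a sum of 0, 850 a sum of 1 to 2, 534 of 3 to 9 and 339 of 10 or more, with median depths of 9623, 11032, 10808 and 11178 UMIs. Inducible and constitutive Hsp70 moved in opposite directions along these bins.

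The Hspa1 pair was at 147.3, 230.2, 593.1 and 480.5 CPM in the 4 bins, and *Hspa8* at 3185, 3059, 2733 and 2314. Top over bottom bin, the log2 ratio was 1.71 (1.62 to 1.79) for the pair, 1.56 (1.46 to 1.66) for *Hspa1a*, 2.02 (1.87 to 2.17) for *Hspa1b* and -0.46 (-0.49 to -0.43) for *Hspa8*. *Hspb1* went from 7.3 to 31.5 CPM (2.10, 1.74 to 2.46). These 3 members of 10 were past 2-fold, where 7.69% of all genes tested were, and since the rule used this contrast nothing is read from the count. *Hsp90aa1* went from 744 to 948 CPM (0.35), *Dnajb1* from 66.1 to 87.4 (0.40), *Bag3* from 19.95 to 26.4 (0.40) and *Hsph1* from 43.0 to 54.2 (0.34). The mitochondrial genes were lower, *Hspe1* from 346 to 283 CPM (-0.29) and *Hspd1* from 203 to 158.5 (-0.36), while the median of all genes was -0.11.

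The share of Hspa1-high cells along the bins was 33 of 1437 cells (2.30%, 1.59 to 3.21%), 43 of 850 (5.06%, 3.68 to 6.75%), 71 of 534 (13.3%, 10.5 to 16.5%) and 53 of 339 (15.6%, 11.9 to 19.9%) in the 4 bins. Leaving these cells out lowers the pair by construction, since its UMIs chose them. As a description, the other cells had it at 89.1, 93.5, 104 and 118 CPM, a log2 ratio of 0.40 (0.25 to 0.55). *Hspa8* kept its fall without them (-0.50), and *Hsph1* turned from 0.34 to -0.30. The share of thinned cells with a UMI of the pair was 18.3%, 21.3%, 29.6% and 30.4%. In Hspa1-high cells the 5 hypoxia genes of the rule were at 626 CPM against 279 in the others, and of the pigment genes of the tumor 3 of 4 tested were past 2-fold higher in them (median log2 ratio 1.15). Along the bins the pigment genes went from 20.5 to 31.7 CPM and *Lyz2* from 9976 to 6614, and their part in the result was not tested.

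The T cell sort had the same direction for the pair, in fewer cells, while *Hspa8* fell by less than in the CD45 sort. The ZsG+ Lyz2-high cells of the T cell sort (134, 41, 30 and 39 per bin) had the pair at 54.1, 363.6, 616.8 and 460.7 CPM. *Hspa8* was at 2317, 2216, 1994 and 2135 CPM. Its intervals in the bottom bin (2244 to 2393) and the top bin (2023 to 2251) overlap, and the median log2 ratio of all genes was -0.09. The log2 ratio of top over bottom bin was 2.72 for *Hspa1a* and 3.87 for *Hspa1b*, the 2 of 9 members tested that were past 2-fold (14.3% of all genes), and 3.09 (2.74 to 3.45) for the pair. The mitochondrial genes were not lower there: *Hspe1* went from 389.5 to 429.5 CPM (0.14, -0.07 to 0.35) and *Hspd1* from 147.1 to 193.7 (0.40, 0.07 to 0.72). *Hsp90aa1* had 0.78, *Hsph1* 0.81 and *Dnajb1* 0.68. Hspa1-high cells were 1 of 134 (0.746%), 3 of 41 (7.32%), 4 of 30 (13.3%) and 6 of 39 (15.4%, 5.86 to 30.5%). Without them the pair's ratio was 0.76, lower as the choice of these cells fixes. In the ZsG- CD45 library 234 of the 275 Lyz2-high cells had no UMI of the 5 genes, and the pair was at 58.7 CPM in bin 0 and 42.7 in the bin of 1 to 2.

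**Figure D4:**
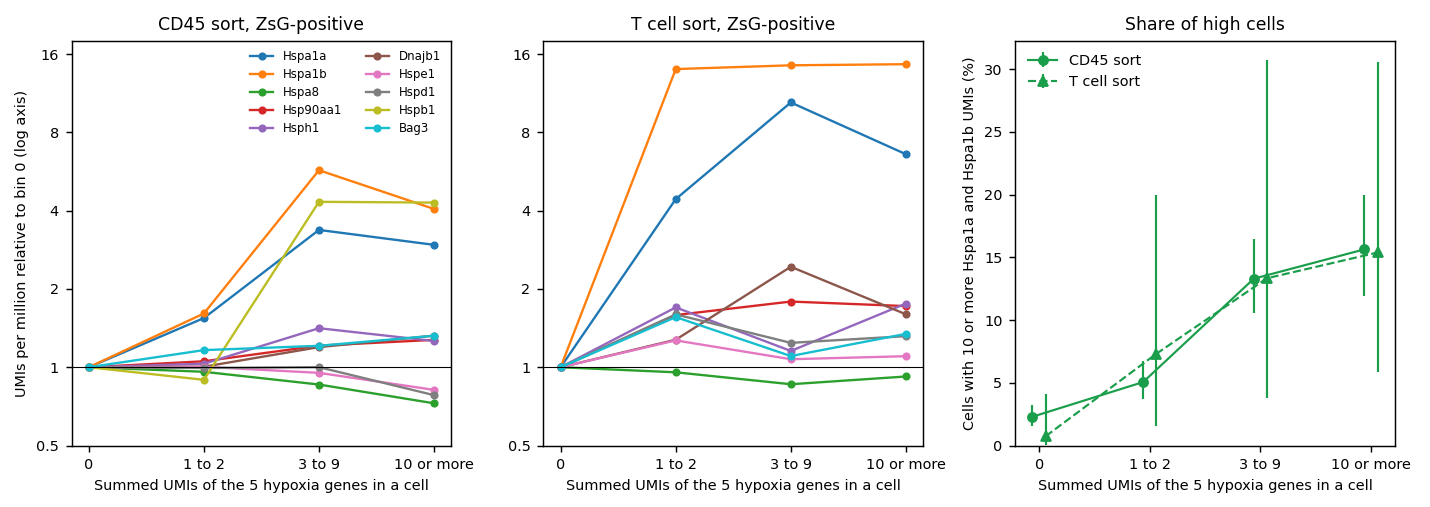
Left and middle, level of each member relative to the bin with a sum of 0 (y axis, log scale) against the summed UMIs of the 5 hypoxia genes (x axis) in Lyz2-high cells of the ZsG-positive libraries of the CD45 and T cell sorts (*Hspb1*, with too few UMIs, is not drawn for the T cell sort). Right, share of Hspa1-high cells in each bin (y axis, %) with exact binomial intervals, which goes from 2.30% to 15.6% in the CD45 sort and from 0.746% to 15.4% in the T cell sort.

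Along the same bins of the ZsG+ CD45 library, chaperone lists outside the members were not higher. Of the partners of Hsp70 and Hsp90, none of 17 was past 2-fold and 3 were higher (median log2 ratio -0.21), with *Cacybp* from 167 to 107 CPM (-0.63) and *Fkbp4* at -0.56. All 8 TRiC subunits were lower (-0.36), *Cct5* from 246 to 175 CPM (-0.49) and *Cct3* at -0.44. Mitochondrial chaperones and proteases had a median of -0.17 (*Clpp* -0.76, *Trap1* -0.65). Of 18 ER chaperones and stress genes, 1 was past 2-fold, *Ddit3*, which encodes the stress factor CHOP, from 44.1 to 93.8 CPM (1.09). Oxidative and metal stress genes had 5 of 8 past 2-fold upwards (1.21), with *Hmox1* from 131 to 553 CPM (2.07) and *Mt2* at 1.69, and hypoxia genes outside the rule 7 of 9 (2.20), with *Adm* at 6.11 and *Ndrg1* at 3.18. Immediate early genes were higher in all 12 but past 2-fold in 1, *Ier3* (844 to 1709 CPM, 1.02). Among the members, *Hspa1a*, *Hspa1b* and *Hspb1* were past 2-fold upwards along these bins, and *Hspa8*, *Hspd1* and *Hspe1* were lower. *Hsp90aa1*, *Hsph1*, *Dnajb1* and *Bag3* were higher by less than 2-fold. *Hspb1* had a UMI in only 13 of 1437 cells of the bottom and 12 of 339 cells of the top bin. Since the rule used these bins, nothing is read from how the members compare with the lists.

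The comparison of ZsG+ with ZsG- cells asks whether immune cells that took up tumor material differ from those that did not. For lymphocytes of the CD45 sort it sets bright cells against a gate that also held cells carrying ZsG. For Lyz2-high cells of that sort the sides differ in make-up. C1q-high macrophages were 5 of 275 ZsG- and 1774 of 3160 ZsG+ cells. Cells rich in *Ace* and *Treml4* were 75 and 38, and those rich in *Vcan* and *Chil3* 118 and 699. The part of this make-up in the ratios was not tested. For Lyz2-high cells of the CD45 sort the pair had 135 UMIs in 275 ZsG- and 11407 in 3160 ZsG+ cells, a log2 ratio of 2.38 (2.13 to 2.63), with 2.45 (2.14 to 2.77) for *Hspa1a* and 2.24 (1.84 to 2.68) for *Hspa1b*. *Hspb1* had 0 and 565 UMIs, 11.6-fold apart if the ZsG- group is set at 3 UMIs. This is no lower bound, since 32 of the 3160 ZsG+ cells held 97.0% of its UMIs and 1 cell held 146. Among 275 ZsG- cells, 1 such cell would change the ratio. *Hspa1a*, *Hspa1b* and *Hspb1* were the 3 of 10 members past 2-fold, where 24.4% of all genes tested were, and all 10 were higher. *Hspd1* (0.78, 0.60 to 0.96), *Hspe1* (0.65), *Hsp90aa1* (0.50), *Hsph1* (0.42) and *Hspa8* (0.38, 0.35 to 0.42) were higher by less, and for *Dnajb1* (0.14, -0.10 to 0.38) and *Bag3* (0.10) the intervals held 0.

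The ZsG- library had no Hspa1-high cell, so leaving these cells out can only lower the pair's ratio. The other cells had the pair at 96.1 against 56.3 CPM (0.77, 0.52 to 1.03), *Hspa1a* at 1.07 and *Hspa1b* at 0.06, while *Hspa8* (0.39), *Hspd1* (0.77) and *Hspe1* (0.62) hardly moved. Within cells rich in *Vcan* and *Chil3*, genes of young monocytes, the pair had a log2 ratio of 2.40, *Hspd1* 1.02 and *Hspa8* 0.82, and within *Ace* and *Treml4* cells, the patrolling monocytes, the pair had 2.36 and *Hspa8* 0.81. Thinning to 2000 UMIs and the mean over cells moved the pair's ratio in all Lyz2-high cells to 3.47 and 2.98. Pigment genes of the tumor were at 0.834 CPM in ZsG- and 22.4 in ZsG+ Lyz2-high cells, and their part in the result was not tested.

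In Lyz2-high cells of the T cell sort the direction was the opposite. The pair was at 346.0 CPM in ZsG- and 263.6 in ZsG+ cells (-0.39, -0.56 to -0.22), a ratio that turned to 0.18 without the Hspa1-high cells, to 0.029 thinned, to 0.43 as a mean over cells and to 0.20 with a mitochondrial limit of 5%. *Hspb1*, with 1 and 91 UMIs, was the 1 of 10 members past 2-fold (5.06, 2.55 to 10.38), where 5.06% of all genes were. Of its 91 UMIs, 81.3% lay in 2 of the 244 ZsG+ cells. *Hspa8*, *Hsp90aa1*, *Hspe1* and *Hspd1* lay between 0.03 and 0.07, and *Bag3* at -0.997 (-1.71 to -0.27). The subsets went opposite ways, the pair having 2.50 (1.97 to 3.07) in C1q-high macrophages and -2.40 (-2.72 to -2.08) in *Vcan* and *Chil3* cells (26 ZsG- cells). The 2 sorts also differ in the gate and the run, which cannot be told apart from the sort. Neutrophil genes were at 10.7 CPM in the ZsG- and 204 in the ZsG+ Lyz2-high cells of the T cell sort (2.92 and 2.97 in the CD45 sort), and their part in these values was not tested.

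Summed over all T cells, *Hsp90aa1*, *Hsph1*, *Hspd1*, *Hspe1* and *Hspa8* were higher in the ZsG+ cells of both sorts. The pair's direction depended on the sort and on a few cells. In the CD45 sort the pair was at 66.4 CPM in ZsG- and 88.7 in ZsG+ cells (0.42, 0.18 to 0.65), *Hsp90aa1* had 0.38, *Hsph1* 0.48, *Hspd1* 0.26, *Hspa8* 0.19 and *Hspe1* 0.15. One of 10 members was past 2-fold, *Hspb1*, lower with 35 against 2 UMIs (-1.03, -4.14 to 0.93), where 7.53% of all genes were. In the T cell sort none of 9 was (5.91% of all genes), and *Hspd1* (266.6 to 403.5 CPM, 0.60, 0.50 to 0.70), *Hspe1* (0.48), *Hsp90aa1* (0.44), *Hsph1* (0.36) and *Hspa8* (0.28) were higher. The pair was lower there (-0.52, -0.74 to -0.31), but turned to 0.25 without its 8 and 10 Hspa1-high cells, to 0.052 thinned and to 0.13 as a mean over cells. Within CD8 T cells of that sort *Hspd1* went from 291.0 to 491.5 CPM (0.76), *Hspe1* from 626.0 to 917.1 (0.55) and the pair from 35.1 to 46.1 (0.39). The other T cell subsets of that sort did not share this rise. In Foxp3-negative CD4 T cells 1 of 8 members tested was higher (median log2 ratio -0.62). There 3 were past 2-fold lower, where 8.62% of all genes were past 2-fold either way, and the pair had 130 and 3 UMIs in 61 and 40 cells. In Foxp3-positive T cells 3 of 6 members tested were higher and none was past 2-fold (median -0.05, 9.39% of all genes). Cycling cells were 401 of 1300 ZsG- and 72 of 170 ZsG+ T cells in the CD45 sort. In the T cell sort they were 37 of 628 and 112 of 695. T cells of the T cell sort that were not cycling had *Hsp90aa1* at 653 (ZsG-) and 761 (ZsG+) CPM and *Hspd1* at 239.5 and 336.9. Those of the CD45 sort had 567 and 779, and 208 and 260. The part of cycling in the ratios was not tested.

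The list of TRiC subunits was higher in all 7 tested in ZsG+ T cells of the T cell sort (median 0.33 against 0.04 over all genes), partners of Hsp70 and Hsp90 in 13 of 16 (0.21), mitochondrial chaperones in 7 of 8 (0.45) and ER chaperones in 14 of 18 (0.35), with none of the partners or TRiC subunits past 2-fold. In ZsG+ Lyz2-high cells of the CD45 sort the partners had 2 of 17 past 2-fold upwards (*Hspbp1* 1.304, *St13* 1.04), TRiC none of 8 with 8 higher (0.49), mitochondrial chaperones 2 of 8 (*Clpp* 1.17) and ER chaperones 5 of 18 (*Ddit3* 2.11, *Creld2* 1.32). Of the hypoxia genes outside the rule, 8 of 9 were past 2-fold upwards there. In Lyz2-high cells of the T cell sort none of any list was past 2-fold upwards.

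In NK cells of the CD45 sort none of 10 members was past 2-fold (11.7% of all genes), and the pair's ratio of 0.36 (-0.20 to 0.87) held 0. It turned to -0.50 thinned and -0.46 as a mean over cells, and to 1.03 with no filter, 1.40 at a *Lyz2* limit of 10 and 2.18 without Hspa1-high cells. In pDC of the T cell sort the pair went from 63.6 to 170.1 CPM (1.42, 1.02 to 1.85), with *Hsph1* at -1.15 and *Hspd1* at -0.84. Of 10 members, 2 were past 2-fold up and 2 down, where 5.41% of all genes were past 2-fold. These sums rest on few cells. Hspa1-high cells were 2 of 94 ZsG- (2.13%) and 13 of 524 ZsG+ pDC (2.48%), and held 73.6% and 95.1% of the pair's UMIs. For *Hsph1*, 5 of the 94 ZsG- cells held 73.7% of the UMIs.

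**Figure D5:**
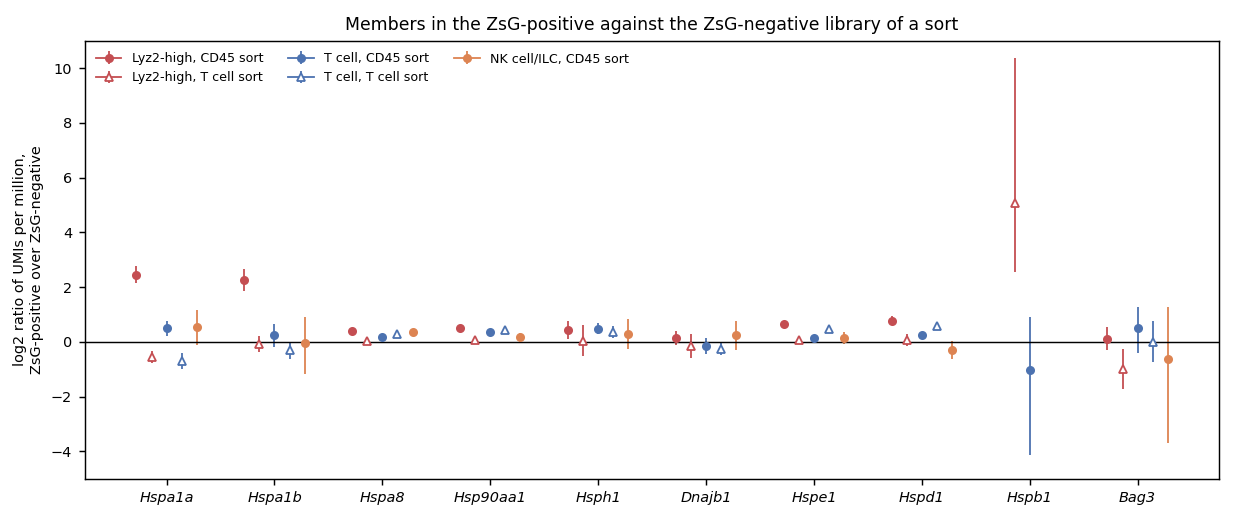
log2 ratio of CPM, ZsG-positive over ZsG-negative library of a sort (y axis), for each member (x axis) by class (colors), filled for the CD45 sort and open for the T cell sort, with 95% counting intervals. Ratios with 0 UMIs on a side are not drawn. The Hspa1 genes stand above 2 only in Lyz2-high cells of the CD45 sort and lie below 0 in both classes of the T cell sort.

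Cycling cells (at least 3 UMIs over *Mki67*, *Top2a* and *Pclaf*) were compared with the others of their class, a comparison the rule did not use. Cycling ZsG- T cells of the CD45 sort had *Hspd1* at 709 CPM against 208 in the others (1.77, 1.68 to 1.86) and *Hsp90aa1* at 1372 against 567 (1.27, 1.22 to 1.33). With *Hspb1* (1 and 34 UMIs) these were the 3 of 10 members past 2-fold, where 27.3% of all genes were, and *Hsph1* (0.79), *Hspe1* (0.74) and *Hspa8* (0.51) followed below it. Cycling cells were deeper, with a median of 26570 UMIs against 5414. In ZsG+ T cells, 2 members were past 2-fold upwards (*Hspd1* 1.56, *Hsp90aa1* 1.06) and 2 downwards (*Hspa1a* -4.31, *Hspa1b* -4.46) of 8 tested, with 27.3% of all genes. The downward values rested on 1 cell that was not cycling, which held 98 of 105 *Hspa1a* and 42 of 48 *Hspa1b* UMIs of its group. Cells with a UMI of the pair were 16.7% of the cycling and 8.16% of the other ZsG+ T cells (median depth 19042.5 and 4096), and 4.17% and 6.12% thinned, with intervals that overlap.

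The mitochondrial and Hsp90 genes were also higher in cycling ZsG+ T cells of the T cell sort (*Hsp90aa1* 0.83, *Hspd1* 0.64), where only the pair was past 2-fold, downwards, 2 of 9 members against 17.1% of all genes (*Hspa1a* -1.99, *Hspa1b* -1.17). In its 37 cycling ZsG- T cells the pair was past 2-fold upwards (1.34 and 1.35), 2 of 9 against 23.2%, with 115 of the 127 UMIs in 1 of 2 positive cells. In cycling ZsG+ Lyz2-high cells of the CD45 sort 3 of 10 members were past 2-fold downwards, *Hspb1* at -3.98 and both Hspa1 genes, against 11% of all genes, and *Hsp90aa1* was at -0.01 (-0.05 to 0.04). *Hspd1* (0.73) and *Hsp90aa1* (0.65) were higher in those ZsG- T cells too, so both were higher in cycling T cells of all 4 libraries. The pair had no common direction in the 4. Thinned, cells with a UMI of it were 4.24% of the cycling and 1.56% of the other ZsG- T cells of the CD45 sort, and were lower in the cycling cells of the other 3 libraries. The intervals of the 2 shares overlap in all 4. The differences between libraries were not tested.

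Chaperones outside the members were higher in cycling ZsG- T cells of the CD45 sort as well. All 8 TRiC subunits were higher and 4 past 2-fold (median 1.02), with *Cct6a* from 143 to 405 CPM (1.499) and *Tcp1* at 1.36. Of the partners, 14 of 16 were higher and 6 past 2-fold (0.75), with *Stip1* at 1.1998 and *Cacybp* at 1.197. Mitochondrial chaperones had 3 of 8 past 2-fold (0.70, *Trap1* 1.36, *Hspa9* 1.299) and ER chaperones 7 up and 2 down of 18 (*Sdf2l1* 1.88, *Dnajb9* -1.52). Immediate early genes had none up and 4 down of 12 (-0.71, *Fos* -1.95, *Btg2* -1.57). The median over all genes was 0.05.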

How the data were processed

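Single-cell RNA from 4 libraries (CD45 sort and T cell sort, ZsG- and ZsG+) was analysed. The deposited files hold whole-number UMI counts per gene and barcode. The authors aligned reads to mm10 with Cell Ranger 6.1.2 (7.0.0 in the CD45 file header), kept barcodes called as cells and combined each sort with aggr. No source used here states whether depth was evened out between libraries. The total was 47537541 and 56510578 counts (CD45 ZsG- and ZsG+) and 10030971 and 22100220 (T cell sort), which sets the counting error.

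The barcode suffix gave the library. For the T cell sort, file and table names put ZsG+ first (2396 barcodes) and the library names put it second, and the former was used.

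Cell filters followed the study's methods (CD45 sort: 1000 to 6000 genes, under 10% mitochondrial UMIs; T cell sort: 50 to 6000 genes, under 15%). The study's CD3 limit of 0.055% was an alternative. No doublet caller was run, and cells with markers of 2 lineages (414, 275, 67 and 206 in the 4 libraries) and of none were set apart. UMIs were summed per class and scaled to 1000000 in Python 3.11.15, using pandas 2.3.3, numpy 2.4.6 and scipy 1.17.1. The 95% intervals are exact: Poisson for sums, Clopper-Pearson for shares, conditional binomial for ratios. A gene was tested for size with at least 20 UMIs over both sides and counted past 2-fold. TMM factors came from edgeR 4.0.16, as an alternative scaling. The scripts were tested on simulated data. With 1 library per condition, no p-value was computed.

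All members are named. From each list the genes furthest from 0 are named, with a few others chosen after their values were seen. The genes most like the Hspa1 pair were the 10 with the highest r, among genes of at least 50 CPM (class sums) or in at least 5% of cells. The members and lists were chosen with earlier results of these data known. The limit of 10 UMIs for Hspa1-high cells, and the rule that at least 8 such cells are compared, were set after the data had been seen. Alternatives were other filters, gates, *Lyz2* limits, thinning, scalings, minimum counts and folds.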

Additional observations from a re-analysis of the deposited data

Results flagged for a closer look

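Effects of the same contrast went opposite ways in the 2 sorts for several members. None of these differences was tested, since each condition had 1 library. The log2 ratio of the Hspa1 pair, ZsG+ over ZsG-, was 2.38 in Lyz2-high cells of the CD45 sort and -0.39 in those of the T cell sort, and 0.42 and -0.52 in T cells. Within *Vcan* and *Chil3* cells it was 2.40 and -2.40, and that of *Hspa8* was 0.82 and -0.26. In pDC, *Hsp90aa1* had 0.60 and -0.41, *Hsph1* 1.71 and -1.15, and *Hspb1* 5.24 (from 1 of 26 cells) and -0.91. If the libraries of the T cell sort are in the other order, each of its values changes sign. The share of Foxp3-positive T cells, given the paper's report on regulatory T cells, goes with the order used.

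Cycling against other T cells, the pair had log2 ratios of 0.35 and -4.36 in the ZsG- and ZsG+ libraries of the CD45 sort and of 1.35 and -1.54 in those of the T cell sort, and *Hsph1* had 0.79 in the ZsG- CD45 library and -0.27 in the ZsG+ library of the T cell sort. In the ZsG+ CD45 library 1 cell that was not cycling held 140 of 153 UMIs of the pair, and in the ZsG- library of the T cell sort 1 cycling cell held 115 of 127. The differences were not tested, and in the T cell sort ZsG- and ZsG+ change places if its libraries are in the other order.

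Hspa1-high cells were also found outside the classes compared. They were 3.80% of the cells that passed no gate in the ZsG- CD45 library and 14.1% (10.1 to 18.9%) in the ZsG+ one, where the 5 hypoxia genes of the rule were at 1143 CPM. Among cells with markers of 2 lineages they were 6.55% in the ZsG+ CD45 library and 2.43% in the ZsG+ library of the T cell sort.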

How the results depend on the processing

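Over the planned and added settings, 27 values of the Hspa1 pair moved and 37 did not, and 31 counts of members past 2-fold moved and 104 did not. No pair ratio past 2-fold changed sign. The cause was not tested. Values are the pair's log2 ratio, then the count of members past the fold.

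For ZsG+ over ZsG- in the CD45 sort, Lyz2-high cells gave a pair ratio of 3.47 thinned, 2.98 as a mean over cells and 0.77 without Hspa1-high cells, and a count of 5 at 1.5-fold. T cells gave a count of 0 with no filter, a mitochondrial limit of 5%, thinning or a minimum of 100 UMIs, 1.68 and a count of 2 at *Lyz2* of 10, and 1.12 and a count of 2 without Hspa1-high cells. NK cells gave 1.03 and a count of 1 with no filter, 1.40 and 2 at *Lyz2* of 10, -0.50 thinned, -0.46 and 1 as a mean over cells, a count of 1 at 1.5-fold, and 2.18 and 2 without Hspa1-high cells.

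In the T cell sort, T cells gave -0.21 with gates of 5 UMIs, 0.052 and a count of 1 thinned, 0.13 as a mean over cells, a count of 1 with no minimum and of 2 at 1.5-fold, and 0.25 without Hspa1-high cells. Lyz2-high cells gave -0.12 with no filter, 0.20 and a count of 2 at a mitochondrial limit of 5%, -0.81 at *Lyz2* of 10, 0.029 thinned, 0.43 and a count of 2 as a mean over cells, a count of 0 at 100 UMIs and of 2 at 1.5-fold, and 0.18 and a count of 0 without Hspa1-high cells.

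Along the hypoxia bins, the CD45 sort gave 1.57 with no filter, 2.86 and a count of 5 thinned to 3000 UMIs (top bin 3 or more), and 0.40 and a count of 1 without Hspa1-high cells. The T cell sort gave 3.66 with no filter, 2.52 at *Lyz2* of 10, 3.67 as a mean over cells, a count of 5 at 1.5-fold, and 0.76 and a count of 0 without Hspa1-high cells. For cycling T cells the count was 5 at 1.5-fold (CD45 ZsG-), 2 thinned (CD45 ZsG+), 4 thinned and 4 at 1.5-fold (T cell sort ZsG-), and 1 at a mitochondrial limit of 5%, 1 as a mean over cells and 4 at 1.5-fold (T cell sort ZsG+). TMM scaling moved all ratios by -0.13 in cycling ZsG+ Lyz2-high cells (CD45 sort), by -0.11 in cycling ZsG- T cells of the T cell sort and by less elsewhere, and none of the values above is from it.

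No paired analysis was possible because each condition had 1 library, and no replicate was left out. Depth limits the low members: *Hspb1* and *Bag3* had under 100 UMIs in most classes, and the smaller classes (26 pDC, 32 NK cells) give wide intervals. Alternatives for the lists were not run.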

Other observations

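In the ZsG- library of the T cell sort, 46 cells passed no gate and carried pigment genes of the tumor at 9829 CPM, against 3.74 in the T cells of the same library. These cells had *Hspe1* at 1315 CPM and *Hsp90aa1* at 1637, where the T cells had 562 and 717. The labels name no such group, so these are values only.

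Beyond the classes named above, the 34 B cell-like cells of the ZsG- CD45 library had the Hspa1 pair at 278 CPM, with all 30 UMIs in 1 cell, *Hspa8* at 881 and *Hsp90aa1* at 908. In NK cells of that library, cycling cells had *Hspd1* at a log2 ratio of 0.86 and *Hsp90aa1* at 0.64 over the others.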
